A study of Mus musculus with 10 samples.

Results

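Outside chromosome 13, RNA polymerase III (Pol III) peaks of mouse cells also gathered in smaller clusters. The 6 of them described here are mm9 windows on chromosome 1 (172960000 to 173045000), chromosome 3 (96120000 to 96310000), chromosome 6 (128705000 to 128800000), chromosome 11 (68845000 to 68945000), chromosome 17 (23665000 to 23690000) and chromosome 19 (12070000 to 12090000). The windows were chosen by the positions of the Pol III peaks themselves, where many lay close together, so their density and number of loci are given as a description. Every peak of the 6 Pol III lists that touched a window was taken. This gave 251 of the 1289 Pol III peaks of the series. Merged wherever they shared at least 1 bp, they formed 69 of the 389 Pol III loci of the series, with 9 on chromosome 1, 17 on chromosome 3, 9 on chromosome 6, 17 on chromosome 11, 9 on chromosome 17 and 8 on chromosome 19.

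The peaks come from chromatin immunoprecipitation sequencing (ChIP-seq) of ES-E14TG2a cells, an established mouse embryonic stem (ES) cell line grown on gelatin with LIF and serum, and of primary mouse embryonic fibroblasts (MEFs), derived from embryos of day 12.5, grown with serum but no LIF, and used after 3 to 5 passages. The labels name no genetic change and no drug in either cell type. In each cell type the Pol III subunits POLR3C, POLR3G and POLR3GL were precipitated with in-house antibodies and RNA polymerase II (Pol II) with the N-20 antibody, with 1 library each. There is therefore no replicate error for any value. Read depth is unknown, and the labels do not say how many embryos gave the MEFs. Comparisons between windows are descriptions with no test, because the same peaks chose the windows, loci of a window share a neighbourhood, and each list is 1 library.

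Pol III makes short non-coding RNAs, above all transfer RNAs (tRNAs) and 5S ribosomal RNA. At a tRNA gene, TFIIIC binds promoter elements inside the transcribed sequence and brings in TFIIIB, which recruits the polymerase. POLR3C belongs to a small subcomplex of Pol III that takes part in initiation and that also holds either POLR3G or its paralog POLR3GL. In mouse cells POLR3G is known for its high level in ES cells and its decline on differentiation, while POLR3GL is made broadly. Mouse tRNA genes are often found in groups, and members of a group can be near-identical copies. No mm9 annotation was at hand, so no gene, exon, intron or UTR was assigned to any locus, and loci are numbered along each window and given by mm9 position.

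The 6 windows differed widely in how their loci were spread. The 17 loci of chromosome 3 spanned 180.0 kb, and the median distance between the centres of neighbours was 7.03 kb (475 bp to 57.9 kb). On chromosome 11 the same number of loci spanned 88.4 kb with a median spacing of 598 bp (318 bp to 34.6 kb), because 10 of its 16 neighbouring pairs lay less than 1 kb apart. With peaks at most 500 bp apart merged, these medians became 7632.5 bp on chromosome 3 and 10573.5 bp on chromosome 11, so their order turned. Chromosome 3 had 3 such pairs of 16. The windows on chromosomes 17 and 19 were compact, with 9 loci in 16.4 kb and 8 loci in 10.2 kb, or 5.49 and 7.87 loci per 10 kb of span. Chromosome 19 held the closest pair of all 6 windows, 306 bp from centre to centre. Empty stretches split the remaining 2 windows, and also those of chromosomes 3 and 11, whose widest spacings were 57.9 and 34.6 kb. On chromosome 1 a gap of 56.9 kb between centres, 72.9% of the span from edge to edge, parted 5 loci from 4, and on chromosome 6 gaps of 34.7 and 35.4 kb parted the 9 loci into 3 groups of 3. Over all 63 neighbouring pairs the median spacing was 1.87 kb, against 12.5 kb over the 368 neighbouring pairs of all chromosomes, a difference that the choice of windows makes.

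**Figure D1:**
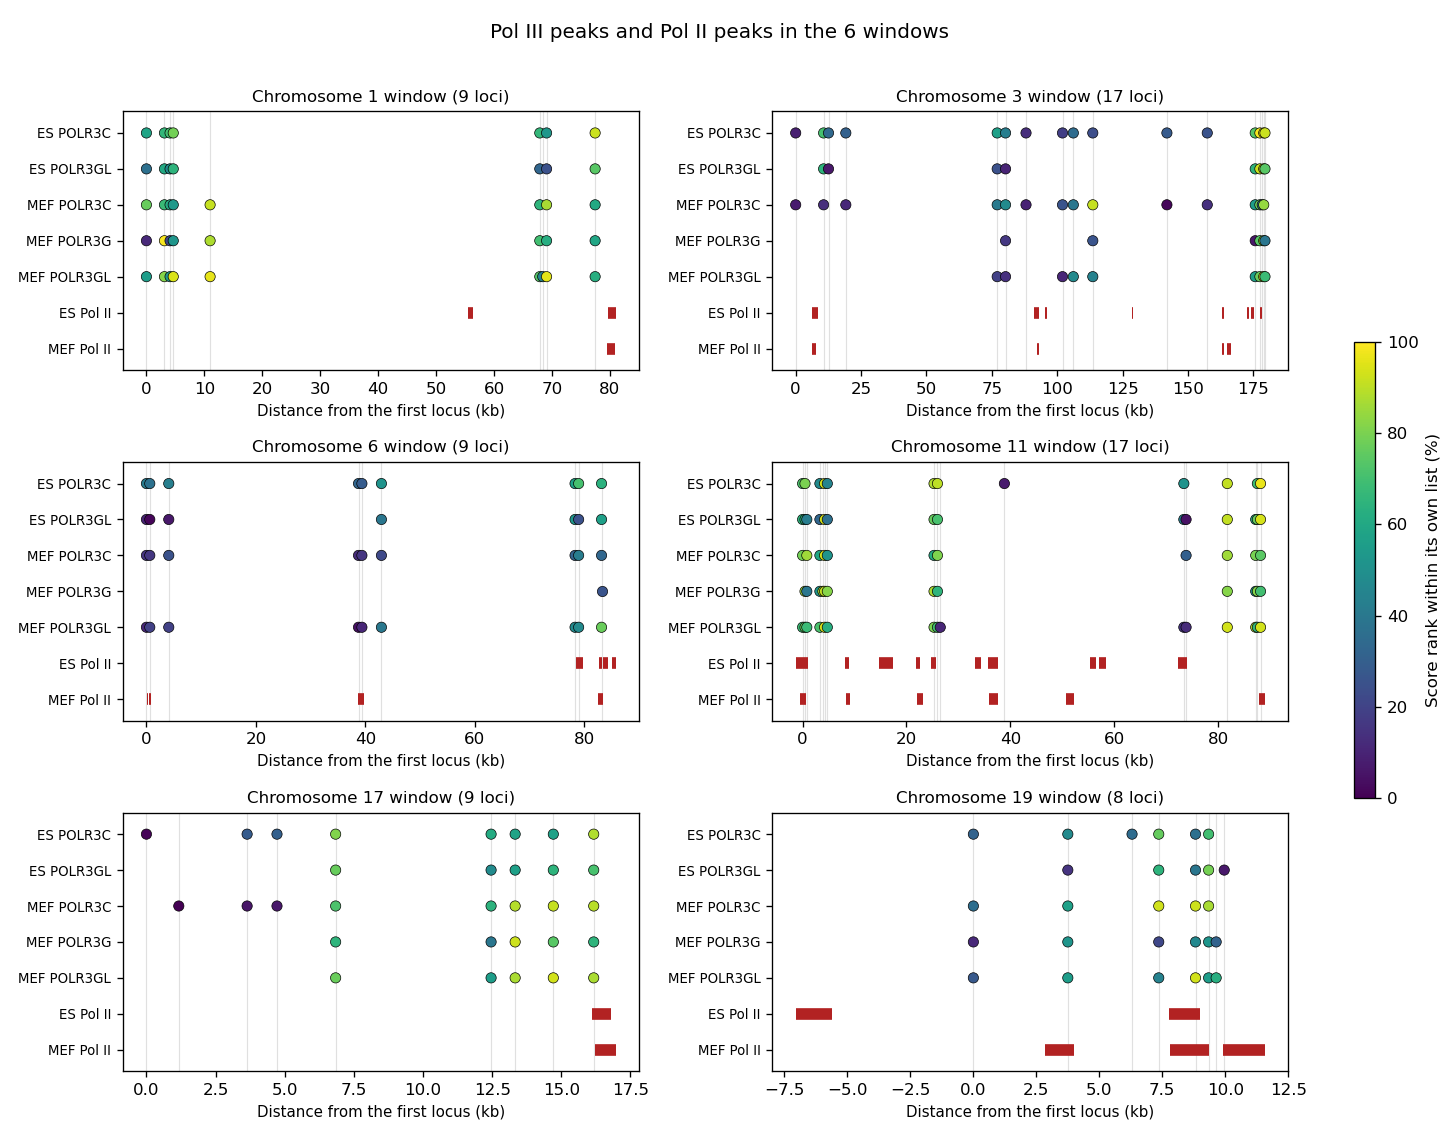
Peaks of each list along the 6 windows, with the distance from the centre of the first locus in kb on the x axis and 1 row per list. Points are loci called by a Pol III list, coloured by score rank within that list, bars are Pol II peaks to scale, and grey lines mark the loci. The 3 groups of 3 on chromosome 6 and the change from POLR3C alone to all 5 lists along chromosome 17 can be read off.

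**Figure D2:**
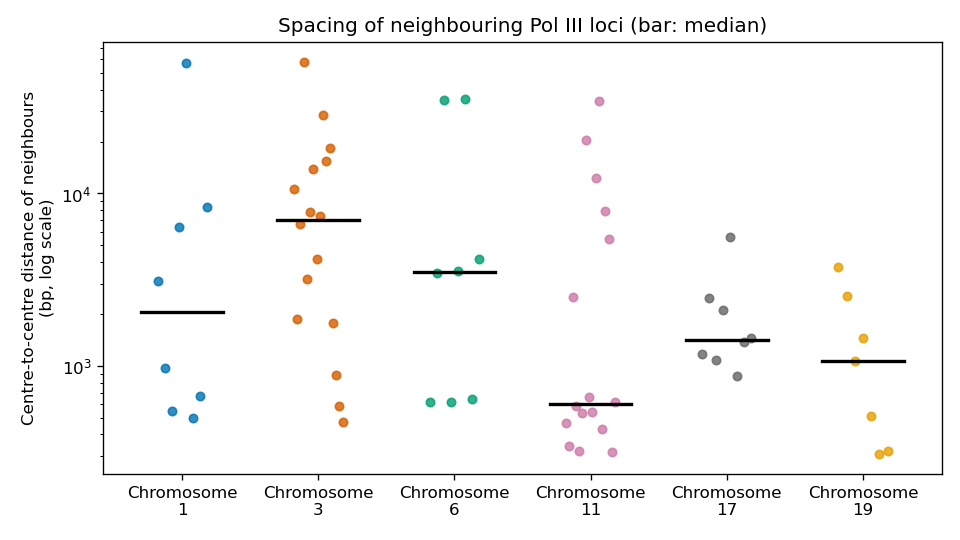
Centre-to-centre distance between neighbouring loci in bp on a log axis, 1 point per pair, with the median of each window as a bar. Most pairs of chromosome 11 lie near its median of 598 bp, while pairs on chromosome 3 run from 475 bp to 57.9 kb around a median of 7.03 kb.

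The edges of the windows lay far from other Pol III loci. The nearest locus outside was 656 kb away, to the right of the chromosome 3 window at 96961890 to 96962114, and it was called by POLR3C and POLR3GL in both cell types. For the other windows the nearest outside locus on either side lay between 2280 kb (chromosome 1, right, at 175320356 to 175320569, called by ES POLR3C alone) and 16800 kb (chromosome 19, right, at 28847428 to 28847641, ES POLR3C alone). The chromosome 17 window had no locus to its left and its first neighbour on the right 2320 kb away, at 26011914 to 26012137. On the left, the distances were 5390 kb on chromosome 1, 5850 kb on chromosome 3, 3350 kb on chromosome 6, 6290 kb on chromosome 11 and 6280 kb on chromosome 19. To the right of the windows on chromosomes 6 and 11 they were 14200 and 10600 kb. No locus therefore sat just outside a limit.

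Most of the 69 loci carried POLR3C, and the paralogs varied more. ES POLR3C was called at 58 loci (84.1%, against 81.5% of all 389 loci) and MEF POLR3C at 56 (81.2%, against 70.7%). ES POLR3GL was called at 46 loci (66.7%, against 62.5%) and MEF POLR3GL at 53 (76.8%, against 67.9%). MEF POLR3G was called at 38 loci (55.1%, against 45.5%). The ES POLR3G list, with 13 peaks in all (3.34% of the 389 loci), had none in any window. A locus was called by all 5 of the other lists in 28 cases (40.6%, against 37.5%) and by 1 list in 9 cases (13.0%, against 26.2%). In ES cells alone 5 loci were called (7.25%, against 21.3%) and in MEFs alone 7 (10.1%, against 10.0%). Except for loci called by 1 list and in ES cells alone, which were less frequent here than in the whole series, these shares were close to or moderately above those of all loci. The windows were chosen through peaks of these same lists, and the 389 loci include the 69, so the shares are a description only.

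**Figure D3:**
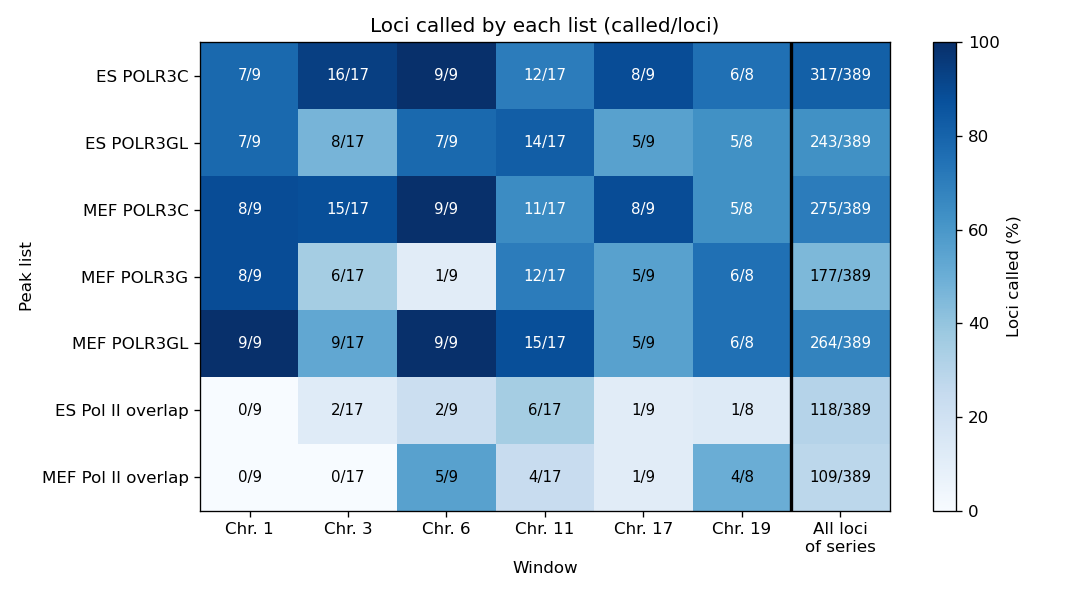
Number of loci called by each list out of the loci of each window, and in the last column out of all 389 loci of the series; the shade gives the percentage. MEF POLR3G was called at 1 of 9 loci on chromosome 6 and 8 of 9 on chromosome 1, and POLR3GL at 8 (ES cells) and 9 (MEFs) of 17 loci on chromosome 3.

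The chromosome 6 cluster had Pol III without MEF POLR3G calls at nearly all of its loci and an arrangement that came back 3 times. All 9 loci were called by POLR3C in both cell types and by MEF POLR3GL, and 7 by ES POLR3GL. MEF POLR3G was called at the last locus alone (128793187 to 128793420, score 20). Each group of 3 began with a pair of loci, at distances of 613.5, 620 and 644.5 bp between centres. The third locus of each group followed after 3465, 3570.5 and 4193.5 bp. The groups started at 128710032, 128748747 and 128788354, so that the step from one first locus to the next was 38.8 kb and then 39.6 kb. The spacing thus repeated closely within the pair and less so for the third locus. The labels do not say how reads that match several places were handled, and whether the 3 groups share sequence was not tested.

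On chromosome 6 the last of the 3 groups had the highest POLR3C scores in both cell types. POLR3C in ES cells scored 1313, 1196 and 1378 in the first group, 1040, 832 and 1586 in the second, and 1729, 1963 and 1833 in the third. In MEFs the POLR3C scores were 110, 115 and 159, then 97, 111 and 150, and then 180, 202 and 183. All 3 loci of the third group thus scored above every locus of the other groups in both POLR3C lists. MEF POLR3GL scored 24, 30 and 30, then 19, 24 and 44, and then 48, 48 and 62, with the same order of groups at the top. ES POLR3GL scored 20, 16 and 19 in the first group and 31, 24 and 32 in the third, and in the second it was called at the last locus alone, with 28. Here the first locus pair of the second group carried no ES POLR3GL peak, and the score of 24 in the third group lay below that 28.

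MEF POLR3G is called more often where MEF POLR3GL scores high, so the chromosome 6 loci were set beside loci of like score. Across the series 65.5% of the 264 loci with MEF POLR3GL carried MEF POLR3G, and in the 6 windows 37 of 53 did (69.8%). For the 5 chromosome 6 loci with POLR3GL scores of 19 to 30, POLR3G was called at 0, and outside the windows it was called at 2 of 35 loci in this score range (5.71%). The 4 chromosome 6 loci with scores of 44 to 62 had 1 POLR3G call. Outside the windows 70 of 78 loci in that range had one (89.7%). The 3 uncalled loci are those at 128752931 to 128753242, 128788354 to 128788577 and 128788948 to 128789272. At the lower scores the cluster thus looked like other loci, and at the higher scores it had fewer calls, over 4 loci of 1 library. Loci were matched on POLR3GL score alone, not on POLR3C. The 3 uncalled loci scored 150, 180 and 202 for MEF POLR3C, below that list's median of 215, but so did the called locus, with 183. Outside chromosome 6, locus 9 of chromosome 3 (POLR3C 200, POLR3GL 48) also lacked MEF POLR3G, while locus 1 of chromosome 19 (189 and 35) carried it.

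The chromosome 3 cluster ran from loci called by every list but ES POLR3G to loci called by POLR3C alone. At its right end, loci 13, 14, 16 and 17 lay within 3.97 kb, and POLR3GL was called at each of them in both cell types, with scores of 34 to 48 in ES cells and 52 to 80 in MEFs. Locus 16 (96304814 to 96305084) scored 2756 for ES POLR3C, 48 for ES POLR3GL, 252 for MEF POLR3C, 35 for MEF POLR3G and 80 for MEF POLR3GL, and of the loci of this window called by 5 lists it had the highest mean rank. Locus 14 (96303335 to 96303622) had the window's highest ES POLR3C score, 2860. Between them, locus 15 (96304254 to 96304477) was called by MEF POLR3C alone, with 189.

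Elsewhere in the chromosome 3 window POLR3C was often called without its partners. The ES POLR3G list, with 13 peaks in all and none in any window, cannot show absence at single loci. At loci 1, 4, 7, 11 and 12 POLR3C was called in both cell types, with POLR3GL in neither and no POLR3G in MEFs. Together with loci 3 and 4 of chromosome 17 these made 7 of the 69 loci (10.1%, against 4.63% of all loci) with POLR3C in both cell types and POLR3GL in neither. The 7 loci scored 325 to 936 for ES POLR3C (median 819) and 43 to 103 for MEF POLR3C (median 69). The 28 loci with 5 lists scored 1183 to 2860 (median 1937) and 183 to 266 (median 241). The ranges did not overlap, but both groups were picked by calls of these same lists, and loci with other combinations of calls were left out. Loci of like score outside the windows also seldom carried POLR3GL, with 8 of 63 in ES cells (12.7%) and 3 of 26 in MEFs (11.5%). The joint pattern of the 7 was found at 11 of the 320 loci outside the windows (3.44%). None of the 7 overlapped a Pol II peak, where 49 of the 69 loci (71.0%) and 58.1% of all loci had no Pol II in either cell type.

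Loci 5, 6, 8 and 9 of chromosome 3 lay further to the left, and of these locus 6 was called by 5 lists. POLR3C scored 1703, 1352, 507 and 1144 at these loci in ES cells and 201, 211, 162 and 200 in MEFs. MEF POLR3GL was called at each of them, with 30, 26, 24 and 48, and ES POLR3GL at loci 5 and 6 only, with 24 and 20. MEF POLR3G was called at locus 6 (96206058 to 96206406) alone among these, with a score of 18. Thus POLR3C and MEF POLR3GL were called at all 4, ES POLR3GL at 2 and MEF POLR3G at 1.

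A few loci of chromosome 3 stood differently in the 2 cell types. Locus 2 (96136552 to 96136775) scored 1963 for POLR3C and 34 for POLR3GL in ES cells, and in MEFs it scored 99 for POLR3C with no POLR3GL or POLR3G peak. Among the 246 loci that both POLR3C lists call, this was a rank of 63.4% in ES cells and 7.52% in MEFs, where rank is the percentage of loci with a lower score, ties counted as 0.5. Locus 10 (96239461 to 96239718) went the other way, with a rank of 8.13% in ES cells (score 702) and 90.2% in MEFs (score 262). It carried POLR3G (20) and POLR3GL (46) in MEFs and no POLR3GL in ES cells. Locus 3 (96138417 to 96138659) was called in ES cells only, by POLR3C (1092) and POLR3GL (19), and the nearest MEF peak was 1641 bp away. These differences each rest on 1 library per cell type.

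Chromosome 17 showed the sharpest order along its length. Its first 4 loci, within 4.98 kb at the left end, were called by POLR3C alone, and its last 5 loci were called by all 5 lists. Locus 1 (23670950 to 23671163) had the lowest score found in the ES POLR3C list, 260, which other peaks share, and was not called in MEFs. Locus 2 (23672114 to 23672337) had the lowest score found in the MEF POLR3C list, 40, also shared, and was not called in ES cells. Loci 3 and 4 scored 832 and 923 in ES cells and 57 and 58 in MEFs. The change came between neighbours 2119.5 bp apart: locus 5 (23677769 to 23678032) scored 2145 and 38 for POLR3C and POLR3GL in ES cells and 240, 29 and 62 for POLR3C, POLR3G and POLR3GL in MEFs. Loci 5 to 9 then scored 1729 to 2314, 30 to 38, 231 to 262, 22 to 38 and 52 to 72 in the same order of lists. Locus 9 (23687114 to 23687337) had the highest ES POLR3C score (2314) and locus 8 (23685618 to 23685917) the highest MEF POLR3C score (262) of this window.

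Of the 6 windows, chromosome 1 had the largest share of loci called by all 5 lists, 7 of 9 (77.8%). Those 7 scored 1599 to 2457 for ES POLR3C and 219 to 254 for MEF POLR3C. Their POLR3GL scores were 24 to 37 in ES cells and 51 to 74 in MEFs, and MEF POLR3G scored 17 to 44. ES POLR3C, MEF POLR3C and MEF POLR3GL were all above the median of their list at each of the 7, while ES POLR3GL was at only 3 of them. Locus 2 (172967091 to 172967349) had the highest mean rank among these 7, with a MEF POLR3G score of 44 out of a list maximum of 46, and locus 9 (173041453 to 173041676) the highest ES POLR3C score (2457). The other 2 loci were called in MEFs only. At locus 5 (172974994 to 172975217) the MEF scores were 262 (POLR3C), 35 (POLR3G) and 75 (POLR3GL), those of POLR3C and POLR3GL the highest of the window, and the nearest ES peak was 6143 bp off. Locus 7 (173032438 to 173032585) carried a POLR3GL peak alone, with 46, between loci 6 and 8, and lay 360 bp from the nearest ES peak and 270 bp from the nearest MEF POLR3C peak. Locus 5 thus had no ES peak close to it, while locus 7 had ES peaks beside it. Each ES list is 1 library of unknown depth, and whether Pol III is absent from locus 5 in ES cells was not tested. Of all 389 loci 39 (10.0%) were called in MEFs only.

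The chromosome 11 cluster ranked high and had the most calls of a paralog without POLR3C. Its highest mean rank was at locus 6 (68854664 to 68854928), where ES POLR3C scored 2496, ES POLR3GL 48, MEF POLR3C 266, MEF POLR3G 37 and MEF POLR3GL 73, and this was also the window's highest MEF POLR3C score. Locus 17 (68938648 to 68938871) had its highest ES POLR3C score, 2652. The 7 loci called by 5 lists here (4, 6 to 9, 14 and 17) scored 1443 to 2652 for ES POLR3C and 216 to 266 for MEF POLR3C, and included the pair at loci 8 and 9 (68875739 to 68876012 and 68876327 to 68876736), 656 bp apart, with ES POLR3C scores of 2314 and 2405. Locus 1 (68850440 to 68850691) had every call but POLR3G, although MEF POLR3GL scored 58 there. MEF POLR3G or POLR3GL was called without MEF POLR3C at 5 of the 17 loci here. Over all windows this occurred at 8 of 69 loci (11.6%, against 7.97% of all loci), and ES POLR3GL was called without ES POLR3C at 4 (5.80%, against 7.20%). In all 12 cases a POLR3C peak of the same cells lay within 500 bp, at 76 to 453 bp. How often this holds over the whole series was not counted. The windows were chosen where peaks lie close together, so near neighbours are frequent in them by choice. Of their 63 neighbouring pairs 24 lay less than 1 kb apart, against 74 of the 368 pairs of all chromosomes.

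The close pairs on chromosome 11 show the pattern. Locus 2 (68850898 to 68851162) carried POLR3C in ES cells (2106) and not in MEFs. Locus 3 (68851239 to 68851508), 76 bp beyond its edge, carried POLR3C in MEFs (253) and not in ES cells. POLR3GL was called at both loci in both cell types. The same alternation was seen at loci 12 and 13 (68923865 to 68924112 and 68924306 to 68924529), where POLR3C scored 1586 in ES cells at the first and 178 in MEFs at the second. It was seen again at loci 15 and 16 (68937715 to 68937938 and 68938038 to 68938251), with POLR3C in MEFs at the first (247) and in ES cells at the second (1924). In these 3 pairs, with locus centres 343.5, 429 and 318 bp apart, each cell type had 1 POLR3C peak for 2 POLR3GL peaks. Nowhere in the windows did 2 loci with POLR3C of the same cells have centres closer than 464.5 bp. POLR3GL was called at both loci of pairs as close as 306 bp. Median peak widths in ES cells and MEFs were 214 and 224 bp for POLR3C and 142 and 148 bp for POLR3GL. A difference between cell types in these pairs was therefore not told apart from limited peak resolution. The sources used here do not say whether nearby peaks were joined or dropped when the lists were called.

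Further loci of chromosome 11 were called by 1 list each. Locus 5 (68854402 to 68854549) was called by MEF POLR3G alone, with a score of 35 (rank 87.9% in its list), and locus 10 (68876999 to 68877146) by MEF POLR3GL alone (24), both within 262 bp of an ES peak. Locus 11 (68889323 to 68889536) was called by ES POLR3C alone (312), with the nearest MEF peak 12176 bp away, and of the 12 ES POLR3C peaks of this window it scored lowest.

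Chromosome 19 had the densest cluster, and its right end was crowded with calls that differed between lists. Locus 6 (12086006 to 12086231) was called by 5 lists and had the highest mean rank of this window, while locus 4 (12083966 to 12084329) had its highest POLR3C scores in ES cells (2067) and MEFs (264). Locus 7 (12086345 to 12086504) was called in MEFs only, by POLR3G (21) and POLR3GL (56), and locus 8 (12086673 to 12086814) in ES cells only, by POLR3GL (19). An ES peak lay 125 bp from locus 7 and a MEF peak 168 bp from locus 8. MEF POLR3C was not called at either, with its nearest peak 113 bp from locus 7. Locus 3 (12082979 to 12083192) was called by ES POLR3C alone (1144), 773 bp from the nearest MEF peak. Locus 1 (12076647 to 12076920) carried POLR3C in both cell types (949 and 189), POLR3G (17) and POLR3GL (35) in MEFs and no ES POLR3GL.

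By median score rank, chromosome 11 stood high for POLR3C in both cell types. Chromosome 6 had the lowest median for POLR3C in MEFs, but not in ES cells, where chromosome 3 had it. A rank here is the percentage of the list's peaks with a lower score, ties counted as 0.5, so that the middle of a list lies at 50%. The deposited score has no stated scale and was compared within a list only. For ES POLR3C the median rank was 75.7% on chromosome 11, 66.1% on chromosome 1, 57.6% on chromosome 17, 42.9% on chromosome 6, 41.9% on chromosome 19 and 34.3% on chromosome 3. In the MEF POLR3C list the order was chromosome 19 (86.7%), 11 (78.7%), 17 (68.0%), 1 (66.3%), 3 (35.6%) and 6 (22.2%). Spread within a window was wide: on chromosome 3 ES POLR3C ranks ran from 8.7 to 98.3%, and on chromosome 17 MEF POLR3C ranks ran from 0.4 to 91.1%. Neighbouring windows in these orders overlapped in their ranks. On chromosome 6 none of 9 MEF POLR3C peaks scored above the median of the list, against 10 of 11 on chromosome 11 and 8 of 8 on chromosome 1.

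The paralogs gave a similar but not identical picture. MEF POLR3GL had its highest median rank on chromosome 17 (87.1%, 5 peaks from 55.1 to 93.2%) and its lowest on chromosome 6 (19.5%, 9 peaks from 4.0 to 77.1%). ES POLR3GL had median ranks of 64.8% on each of chromosomes 3, 11 and 17, and 24.7% on chromosome 6. MEF POLR3G reached 81.9% on chromosome 11, where none of 12 peaks ranked below 25%. It stood at 39.1% on chromosome 19, where none of 6 peaks scored above the list's median, although MEF POLR3C ranked high there. Over all 6 windows the median rank was between 55.7 and 62.5% in each of the 5 lists, near the middle.

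**Figure D4:**
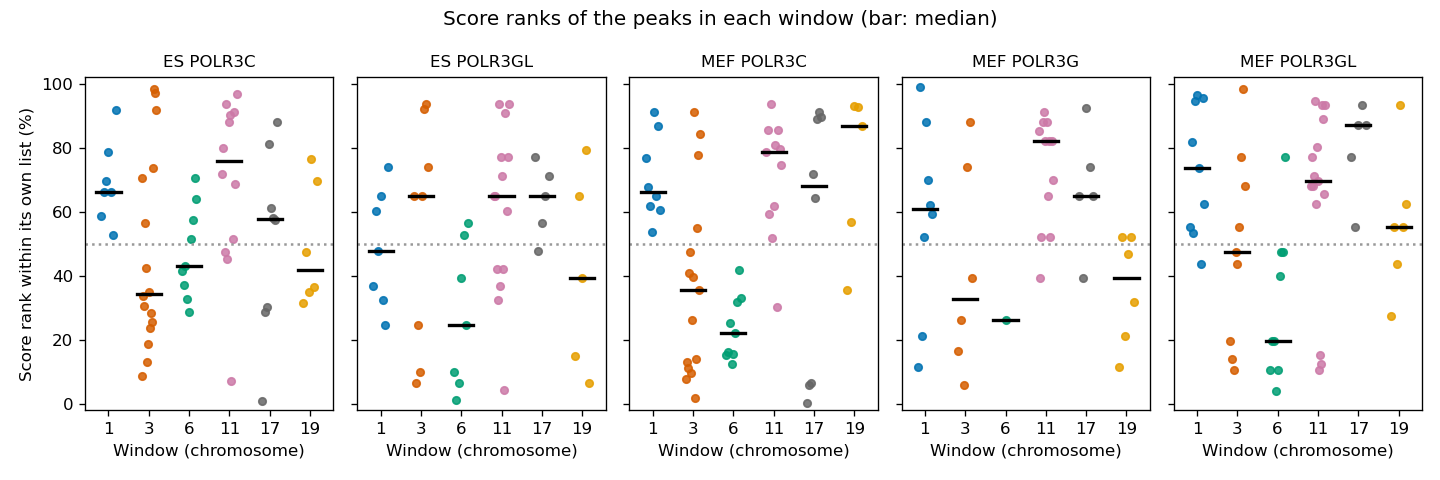
Score rank of every locus within its own list in percent (y axis), by window (x axis), with 1 panel per list and the median as a bar; the dotted line marks 50%. Chromosome 6 lies low in both MEF POLR3C and MEF POLR3GL, with medians of 22.2% and 19.5%, and the chromosome 17 points for POLR3C fall into a low and a high group.

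Ranks in lists of different lengths do not show a change, so POLR3C was also ranked among the 246 loci that both POLR3C lists call. On chromosome 6 all 9 such loci ranked lower in MEFs than in ES cells, by 3.0 to 28.3 percentage points, with medians of 17.1% and 30.1%. On chromosome 19 all 5 such loci ranked higher in MEFs, by 13.4 to 69.7 points, with medians of 86.0% and 35.8%. Locus 5 of chromosome 19 (12085492 to 12085719) moved most in that window, with scores of 1183 in ES cells and 263 in MEFs. The other windows were mixed, with a higher rank in MEFs at 4 of 7 loci on chromosome 1, 6 of 14 on chromosome 3, 4 of 8 on chromosome 11 and 4 of 7 on chromosome 17. For POLR3GL, ranked among 224 shared loci, the chromosome 6 loci were mixed, with 4 of 7 higher in MEFs, and so were those of chromosome 19, with 2 of 4. Elsewhere POLR3GL ranked higher in MEFs at 6 of 7 loci on chromosome 1, 2 of 6 on chromosome 3, 10 of 14 on chromosome 11 and 4 of 5 on chromosome 17. The opposite order of POLR3C on chromosomes 6 and 19 was thus not seen for POLR3GL, and without a second library its error is unknown. The share of all 246 loci that ranked lower in MEFs was not counted. The 9 chromosome 6 loci form 3 groups of similar spacing, and the handling of reads with several matches is unknown. They cannot be taken as 9 separate observations.

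**Figure D5:**
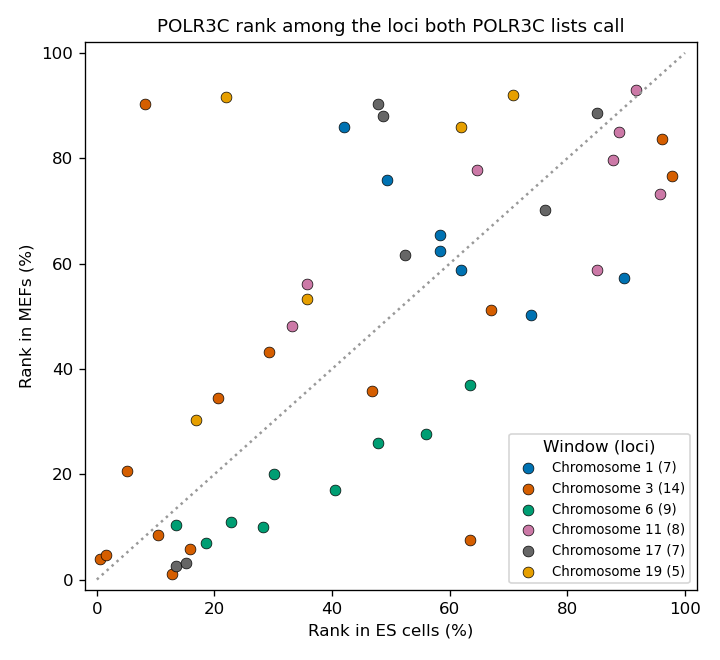
POLR3C score rank in ES cells (x axis) and MEFs (y axis), both in percent among the 246 loci called by both POLR3C lists, for the loci of the 6 windows; the dotted line marks equal rank. All 9 chromosome 6 loci lie below the line and all 5 chromosome 19 loci above it.

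Pol II, which transcribes protein-coding genes and many small nuclear RNA genes, is often found near active tRNA genes. Pol II peaks overlapped fewer of these loci than of all loci. ES Pol II overlapped 12 of 69 (17.4%, against 30.3% of all 389 loci) and MEF Pol II 14 of 69 (20.3%, against 28.0%). A Pol II peak of both cell types lay on 6 loci, of ES cells alone on 6, of MEFs alone on 8, and of neither on 49. These were 8.70, 8.70, 11.6 and 71.0% of the loci, against 16.5, 13.9, 11.6 and 58.1% of all loci. The windows held 28 of the 32345 ES and 21 of the 13306 MEF Pol II peaks.

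Pol II was placed differently in each cluster. On chromosome 1 no locus was overlapped in either cell type. The nearest peaks, at 173043748 to 173045121 in ES cells and 173043654 to 173045002 in MEFs, lay 2071 and 1977 bp to the right of the last locus. On chromosome 11 ES Pol II overlapped 6 of 17 loci and MEF Pol II 4, and loci 1 to 3 were all touched by 1 Pol II peak in each cell type, which in MEFs reached only the edge of locus 3. That peak was in the upper part of its list in ES cells (68849231 to 68851677, score 1245.58, rank 95.4%) and in the lower part in MEFs (68850123 to 68851243, score 90.72, rank 34.0%). Loci 12 and 13 lay in an ES Pol II peak of high rank (68922884 to 68924667, score 993.49, rank 93.7%) and in no MEF peak. Locus 17 was overlapped in MEFs only, by a peak of score 129.44.

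Strong Pol II peaks also stood within 2 kb of Pol III loci without touching them. Chromosome 11 held a Pol II peak at 68886356 to 68888229 in ES cells (score 3100, rank 99.4%) and 68886497 to 68888255 in MEFs (score 2693.6), 1093 and 1067 bp from locus 11. On chromosome 3 an ES Pol II peak of the same score, 3100, lay at 96132208 to 96134651, 1900 bp from locus 2, and the MEF peak there scored 468.8. The one Pol II peak on a locus of chromosome 3 was weak, an ES peak of score 73.85 (96303384 to 96304400, rank 26.0%) that covered parts of loci 14 and 15.

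On chromosomes 6 and 19 Pol II overlapped more loci in MEFs than in ES cells, but on chromosome 19 the order turned, to 1 locus in ES cells and 0 in MEFs, with Pol II peaks at or above the median score of their list. On chromosome 6 MEF Pol II overlapped loci 1, 2, 4, 5 and 9, and ES Pol II loci 8 and 9. The MEF peaks thus lay on both members of the pair in the first and the second group of 3, with scores of 84.58 and 300.93 on the first pair and 400.95 for the peak that covered the second pair (128748801 to 128749904, rank 90.7%). No MEF Pol II peak overlapped the pair of the third group, where an ES peak of score 87.06 lay on locus 8. The first and second groups, which had lower POLR3C scores than the third, had their nearest ES Pol II peak at least 35416 bp away. In MEFs these groups carried the Pol II peaks of 300.93 and 400.95. A link between Pol II and Pol III scores was not tested. On chromosome 19 MEF Pol II overlapped loci 2, 5, 6 and 8, with peaks of low rank (1.5 to 28.2%), and ES Pol II overlapped locus 5 alone. On chromosome 17 locus 9 was overlapped in both cell types, by peaks of score 70.3 in ES cells and 71.26 in MEFs.

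Loci were made of peaks that touch, so the centres of their peaks lie close together by construction. The centres of the 5 peaks spanned a median of 62.5 bp over the 28 such loci, against 57 bp over the 146 of the series. The widest spread was 201 bp, at locus 6 of chromosome 3 (96206058 to 96206406), where MEF POLR3G lay to the right of the others, followed by 193 bp at locus 9 of chromosome 11 (68876327 to 68876736). Fragments averaged 200 to 700 bp per the labels, so loci of a pair that lie 306 to 644.5 bp apart are near the size of a fragment.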

How the data were processed

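Peak lists of 8 immunoprecipitated libraries were used, and the 2 input libraries were not analysed here. The submitters' processing notes name CASAVA 1.8, Bowtie, SAMtools and HOMER, and the build mm9. Each deposited list gives position, name and 1 score per peak, made by the authors on a scale that is not stated. The sources used here do not give the control, the threshold, any pooling or the handling of reads with several matches. Starts were taken as 0-based and are printed 1-based. Peaks of the 6 Pol III lists sharing at least 1 bp were merged into loci. A list called a locus when any of its peaks lay in it, and Pol II was counted when it shared at least 1 bp. Distances are bases between edges, and spacing is between locus centres. Windows, members, named loci and comparisons were chosen with earlier results of these data known. Named loci were those called by most lists, highest in POLR3C, called in 1 cell type, lacking POLR3C, closest, widest or on Pol II; other loci named to show a cluster's order were chosen after their values were seen. The ranks among shared loci, the comparisons at like score and the groups of chromosome 6 were added after seeing the data. Merging, ranks and distances were tested on simulated data. Python 3.11.15, numpy 2.4.6 and pandas 2.3.3 were used.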

Additional observations from a re-analysis of the deposited data

How the results depend on the processing

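With 1 library per antibody and cell type, replicates could not be left out. No paired analysis was possible because each group has 1 library. Extending the windows by 50 kb and leaving out loci called by 1 list kept every count of loci within 1.5 times, and the 60 recomputed median ranks moved by at most 3.3 percentage points. Merging peaks at most 500 bp apart gave 7 loci on chromosome 11 and 5 on chromosome 19, and median spacings of 6645 bp on chromosome 1, 7632.5 bp on chromosome 3, 10573.5 bp on chromosome 11 and 2280.5 bp on chromosome 19. The order of windows by spacing therefore depends on how close peaks are joined. Edge-to-edge gaps gave 349.5 bp on chromosome 11, and loci called by 2 or more lists gave 3108 bp on chromosome 1. Keeping peaks at or above their list's median score left 7, 4, 5 and 5 loci on chromosomes 3, 6, 17 and 19. It left 33 loci with ES POLR3C, 27 with ES POLR3GL, 31 with MEF POLR3C, 25 with MEF POLR3G and 34 with MEF POLR3GL, 0 with POLR3C in both cell types and POLR3GL in neither, 1 with ES POLR3GL and no ES POLR3C, and 0 MEF POLR3G calls on chromosome 6. When a peak within 500 bp counted as a call, 0 loci lacked POLR3C beside a paralog in MEFs and 0 in ES cells. Pol II within 1 kb gave 5 loci on chromosome 3 and 5 on chromosome 19 in ES cells. Within 5 kb, ES Pol II gave 1, 8, 13, 4 and 7 loci on chromosomes 1, 3, 11, 17 and 19, and MEF Pol II gave 1, 3, 9, 14, 4 and 8 on chromosomes 1, 3, 6, 11, 17 and 19. With Pol II peaks at or above their list's median score, ES Pol II gave 0 loci on chromosomes 3, 6 and 17 and 1 on chromosome 19, and MEF Pol II gave 3 on chromosome 6 and 0 on chromosomes 11, 17 and 19. Unknown depth limits every missing call.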
